A study of Oryza sativa with 15 samples.

Results

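Among 24073 genes counted in whole shoots of rice, 65 had little messenger RNA left in both droughts while they held their level at 60 min of heat. They were chosen by their group means in CPM (read counts scaled to library size and, with TMM factors, to library composition). A member had at least 5 CPM on average in the wet control, at most 1/3 of that mean in mild drought and also in severe drought, and at least 0.67 times that mean at 60 min of heat, with 0.1 CPM added to each mean. The wet, both drought and the 60 min heat libraries therefore chose the members, so differences between these groups and the wet control are given as a description, and counts of calls there are read as no evidence. The libraries taken at 30 min of heat took no part in the choice. All 65 genes passed the filter on low counts, which kept 20462 genes.

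The plants were Nipponbare, a japonica cultivar of Oryza sativa, sown 7 to a pot after 3 days of germination and grown for 10 days with 12 h of light, at 30 °C by day and 27 °C by night and 90% humidity. Per g of soil, wet control pots held 3 g of water, mild drought pots 1.5 g and severe drought pots 1.25 g. Plants of both heat groups had the wet soil and spent their final 30 or 60 min at 40 °C. Shoots of all 5 groups were taken 6 h after dawn, with 3 libraries per group and 15 in all. Each library held 49479059 to 77969214 counts. Whether the libraries of a group stem from separate pots is not in the labels, so a p-value measures the spread between these libraries, which may be technical.

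As background, a plant short of water saves it through abscisic acid, which closes stomata and switches on protective proteins, while heat acts through heat shock factors and chaperones within minutes. Jasmonate is a lipid hormone made from fatty acids by lipoxygenase and allene oxide synthase, and it is known for driving defence against insects and pathogens. Rice leaves under attack also make PR10 proteins and diterpenoid phytoalexins, which are antimicrobial compounds. In bulk tissue, fewer cells of a type and less RNA per cell cannot be told apart.

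Names could be given to 15 of the 65 genes, and the other 50 are given by locus. PBZ1 is a PR10 protein first known as induced by probenazole. CM-LOX1 and CM-LOX2 are chloroplast lipoxygenases, AOS2 is an allene oxide synthase, and TIFY11A is a JAZ repressor of jasmonate signalling. CYP76M6 is a cytochrome P450 of diterpenoid phytoalexin synthesis, 4CL5 is a 4-coumarate:CoA ligase of the phenylpropanoid pathway, and AT5 is a BAHD acyltransferase. HAK1 and HAK5 are high-affinity potassium transporters. CKX2 is a cytokinin oxidase, which breaks down the hormone cytokinin. Emp1 is a late embryogenesis abundant protein, PM19L1 is a membrane protein of the AWPM-19 family, TPP2 is a trehalose-6-phosphate phosphatase, and C3H2 is a CCCH zinc finger protein. The members lay on 12 chromosomes by their locus names, with 12 on chromosome 1 and 7 on chromosome 12. Of those 7, LOC_Os12g36830, LOC_Os12g36850, LOC_Os12g36860 and PBZ1 (LOC_Os12g36880) are close neighbours. CM-LOX1 (LOC_Os08g39840) and CM-LOX2 (LOC_Os08g39850) are adjacent, as are LOC_Os06g19095 and LOC_Os06g19110. Reads of close copies may have been shared between such neighbours, so their values are uncertain and are not separate evidence.

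The members' wet means ran from 5.24 to 2481 CPM, with a median of 14.7. The mild drought ratio to the wet mean had a median of 0.179 and ran from 0.00351 to 0.333. The severe drought ratio had a median of 0.0777 (0.00186 to 0.332), and the ratio at 60 min of heat had one of 0.912 (0.676 to 11.3). At 30 min of heat, which was not used to choose them, the median ratio was 0.586, and single genes ran from 0.11 to 18.4. None of the limits fell in a gap between genes. Just inside the drought limit stood LOC_Os04g53860 at 0.333, LOC_Os04g48830 at 0.332 and LOC_Os05g33080 at 0.323, and just outside it LOC_Os07g14740 at 0.334, LOC_Os09g28210 at 0.335 and LOC_Os01g69830 at 0.336. Just inside the heat limit stood LOC_Os09g34230 at 0.676, LOC_Os02g58214 at 0.678 and LOC_Os01g49470 at 0.683, and just outside it LOC_Os05g41590 at 0.668, LOC_Os04g25650 at 0.658 and LOC_Os03g54000 at 0.645. At the wet limit, LOC_Os05g33080 (5.24 CPM), LOC_Os04g48830 (5.25 CPM) and 4CL5 (5.75 CPM) were inside, and LOC_Os01g03330 (4.73 CPM), LOC_Os03g45960 (4.61 CPM) and LOC_Os08g10290 (4.46 CPM) were outside.

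**Figure D1:**
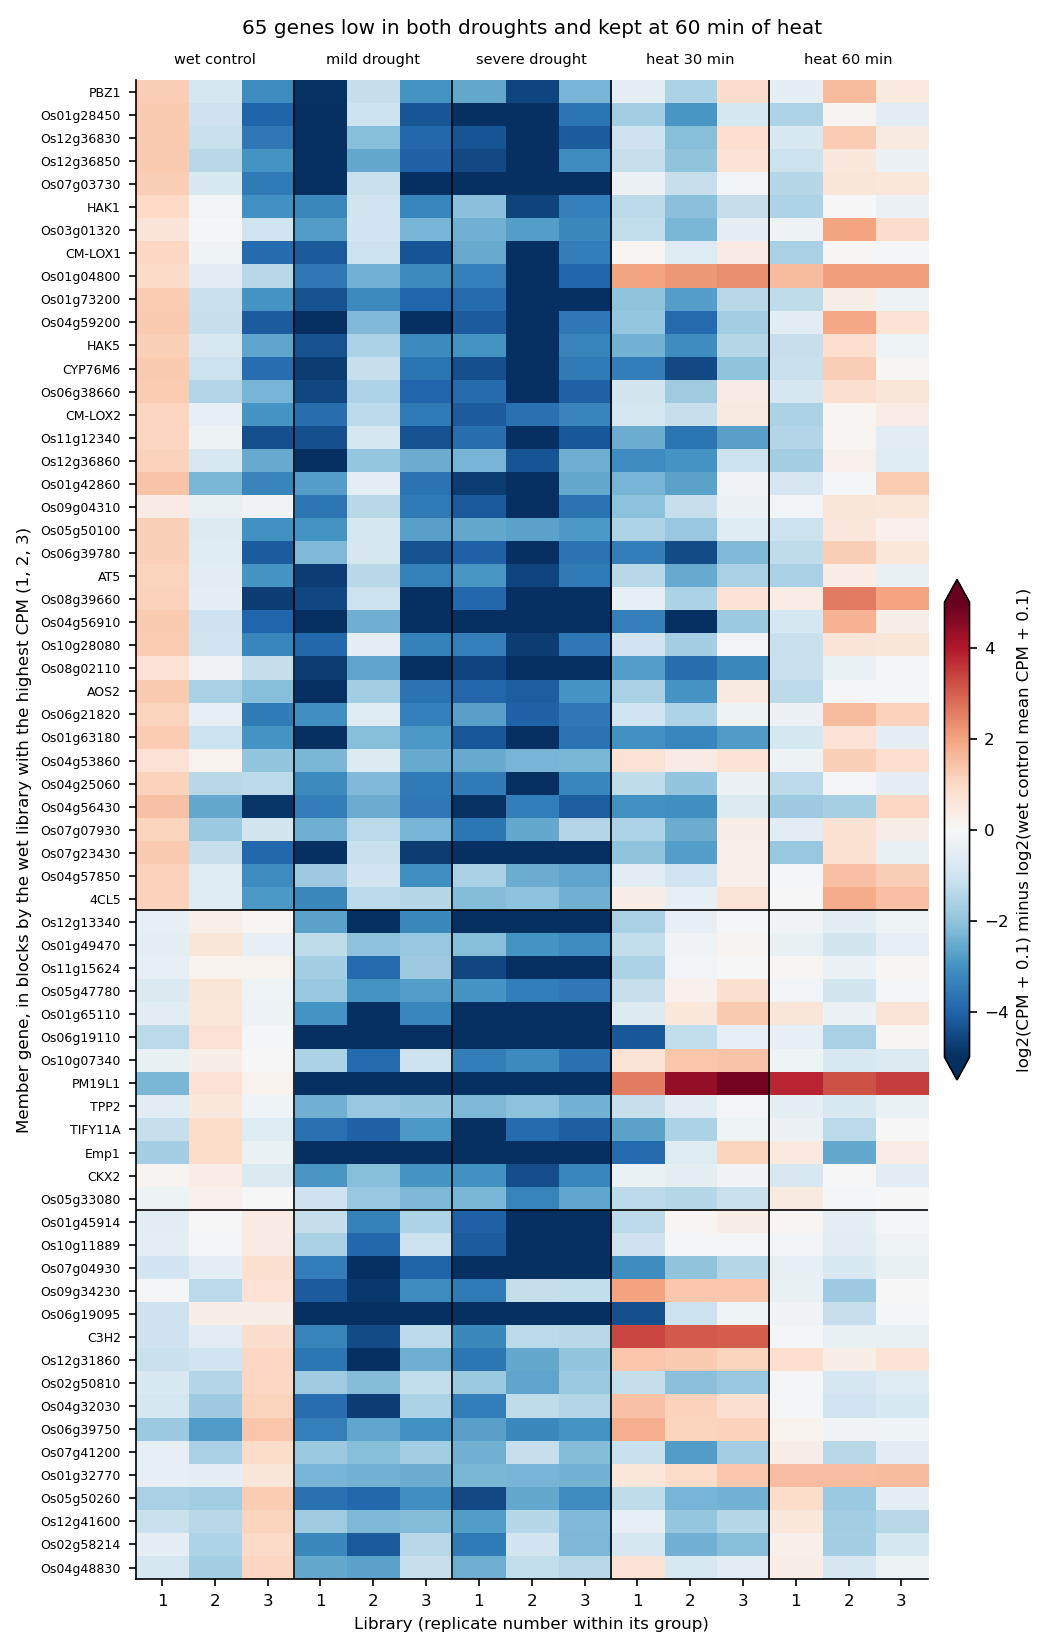
Level of each of the 65 members (rows) in each of the 15 libraries (columns), as log2(CPM + 0.1) minus log2(wet control mean CPM + 0.1); colours are capped at 5 in either direction. Rows are in 3 blocks by the wet library in which the gene was highest: 36 genes in library 1, 13 in library 2 and 16 in library 3.

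The members were not one pattern. The wet libraries disagreed on most of them, and the map of all members by library shows 3 blocks: 36 genes were highest in wet library 1, 13 in wet library 2 and 16 in wet library 3. Of all 20462 genes tested, 24.8%, 32.3% and 42.9% were highest in these libraries. Every wet library stood above every drought library for 27 of the 65 members, against 4.24% of all genes, a share that the choice of members raises. These 27 were 5 of the 36 genes highest in library 1, 13 of the 13 highest in library 2 and 9 of the 16 highest in library 3. For the other members, 1 or 2 of the wet libraries lay within the range of the drought libraries or below it.

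The block of 36 genes held the named genes of defence, jasmonate synthesis, phenylpropanoid and diterpenoid metabolism and potassium uptake. PBZ1 stood at 728, 167 and 35.4 CPM in wet libraries 1, 2 and 3. It stood at 10.1, 135 and 39.2 CPM in mild drought and at 52.5, 12.7 and 61.3 CPM in severe drought. It stood at 219, 104 and 564 CPM at 30 min of heat and at 222, 919 and 436 CPM at 60 min. Wet library 1 was far above all drought libraries, but wet library 3 lay within their range, so wet and drought overlapped. The neighbours LOC_Os12g36830 (402, 76.5 and 13.6 CPM in the wet control) and LOC_Os12g36850 (207, 31.4 and 10.4 CPM) had the same order of wet libraries.

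LOC_Os01g28450, which has no name in the reference and is among the 10 members with the highest wet means, stood at 549, 110 and 13.9 CPM in the wet control. It stood at 3.52, 105 and 11.4 CPM in mild drought and at 5.16, 1.79 and 17.9 CPM in severe drought. Mild drought library 2 was close to wet library 2, while mild library 1 was far lower. The gene stood at 67, 29.5 and 121 CPM at 30 min of heat and at 76.4, 243 and 150 CPM at 60 min.

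The members CM-LOX1, CM-LOX2 and AOS2 shared this order of wet libraries, but not all jasmonate genes did. AOS1, AOC and OPR7, which were not members, were highest in library 3 of the wet control and of mild drought. Their log2 fold changes in mild drought were 0.29, 0.07 and -0.14. OPR1, also not a member, was highest in wet library 1 and mild drought library 2, with a log2 fold change of -0.37. CM-LOX1 stood at 54.8, 22.6 and 1.74 CPM in the wet control, at 1.34, 12.5 and 1.23 CPM in mild drought and at 4.57, 0.664 and 2.31 CPM in severe drought. It was at 28.1, 17 and 35.4 CPM at 30 min of heat and at 8.51, 27.3 and 25.1 CPM at 60 min. AOS2 stood at 21.4, 2.74 and 1.91 CPM in the wet control, where libraries 2 and 3 lay close to the 2.5 CPM of mild drought library 2. TIFY11A did not share the order: its 4.44, 18.9 and 6.26 CPM in the wet control peaked in library 2, and all of them were above the 0.22 to 1.25 CPM of the 6 drought libraries.

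The potassium transporters followed the defence genes. HAK5 stood at 46.1, 11.7 and 3.22 CPM in the wet control, at 0.91, 6.76 and 2.13 CPM in mild drought and at 2.44, 0.462 and 1.9 CPM in severe drought. It stood at 3.88, 2.25 and 7.49 CPM at 30 min of heat, inside the range of the mild drought libraries except for library 3, and at 8.98, 36.1 and 17.3 CPM at 60 min. HAK1 had 65.9, 29.9 and 3.96 CPM in the wet control and 3.52, 16.5 and 3.41 CPM in mild drought. Wet library 3 of both transporters lay below mild drought library 2, so the groups overlapped.

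**Figure D2:**
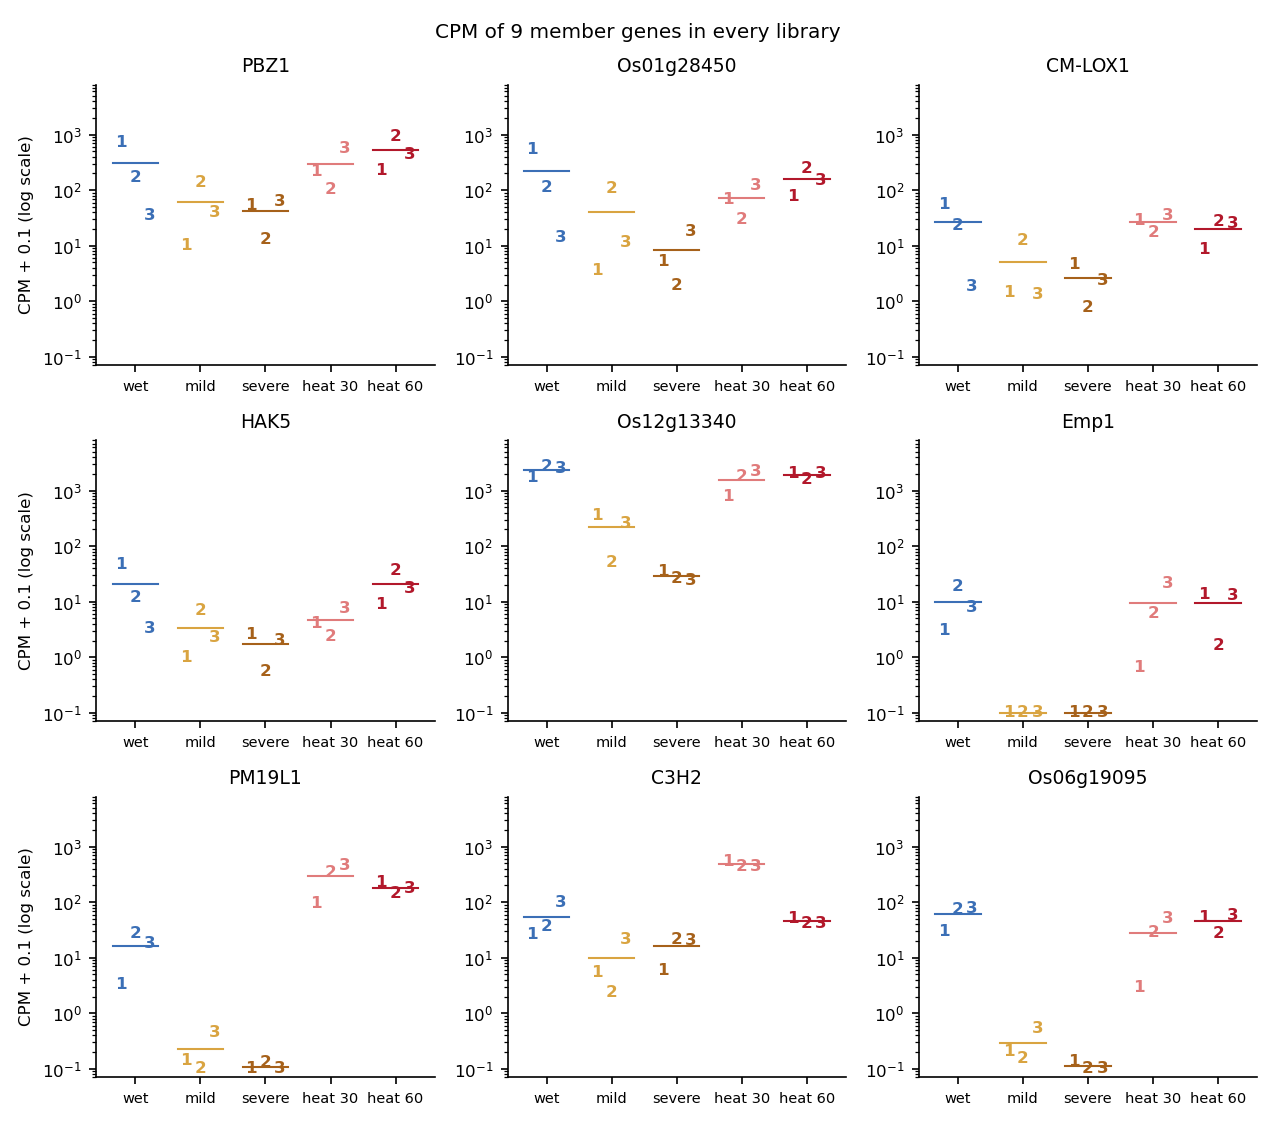
CPM + 0.1 on a log scale for 9 members in every library; digits are the replicate numbers within a group and each line is the group mean. PBZ1, LOC_Os01g28450, CM-LOX1 and HAK5 are highest in library 1 and lowest in library 3 of the wet control and peak in library 2 of mild drought, whereas LOC_Os12g13340, Emp1, PM19L1 and LOC_Os06g19095 have no overlap of wet and drought libraries.

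The order of libraries in mild drought and in both heat groups was not used to form the blocks. The means of mild drought and of 60 min of heat had chosen the members, however. HAK5 and AOS2, for example, left the set without library 2 at 60 min. The shares of members and of all genes below are therefore not like for like. All 36 genes that were highest in wet library 1 were highest in library 2 of mild drought, which holds for 54% of all genes highest in wet library 1. Of the 36, 32 were highest in library 3 at 30 min of heat (46.4% of all such genes) and 31 in library 2 at 60 min (49.9%). Severe drought had no single peak: 16 of the 36 were highest in library 1 (47.1% of all such genes), 2 in library 2 (27.4%) and 18 in library 3 (25.6%). All 4 peaks were shared by 28 of 65 members, or 43.1%, and by 747 of the 20462 genes, or 3.65%. Genes that vary together within groups are not independent, and this is given as a description.

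In size, the median of the 36 genes lay 2.12 above its group mean on the log2(CPM + 0.1) scale in wet library 1 and 2.18 below it (-2.18) in wet library 3. In mild drought it was 1.69 above in library 2. In the heat groups it was 0.87 above in library 3 at 30 min and 0.71 above in library 2 at 60 min. The median of all genes tested stayed between -0.04 and 0.02 in every library, as the plot of each library against its own group shows. All genes were not sorted by their wet libraries and are not a like set. The high value of the 36 genes in wet library 1 follows from how the block was formed. Of the 16 genes highest in wet library 3, 11 were highest in mild drought library 3, near the 68.4% of all genes highest in wet library 3, and 12 were highest in library 1 at 60 min of heat (56.4%).

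**Figure D3:**
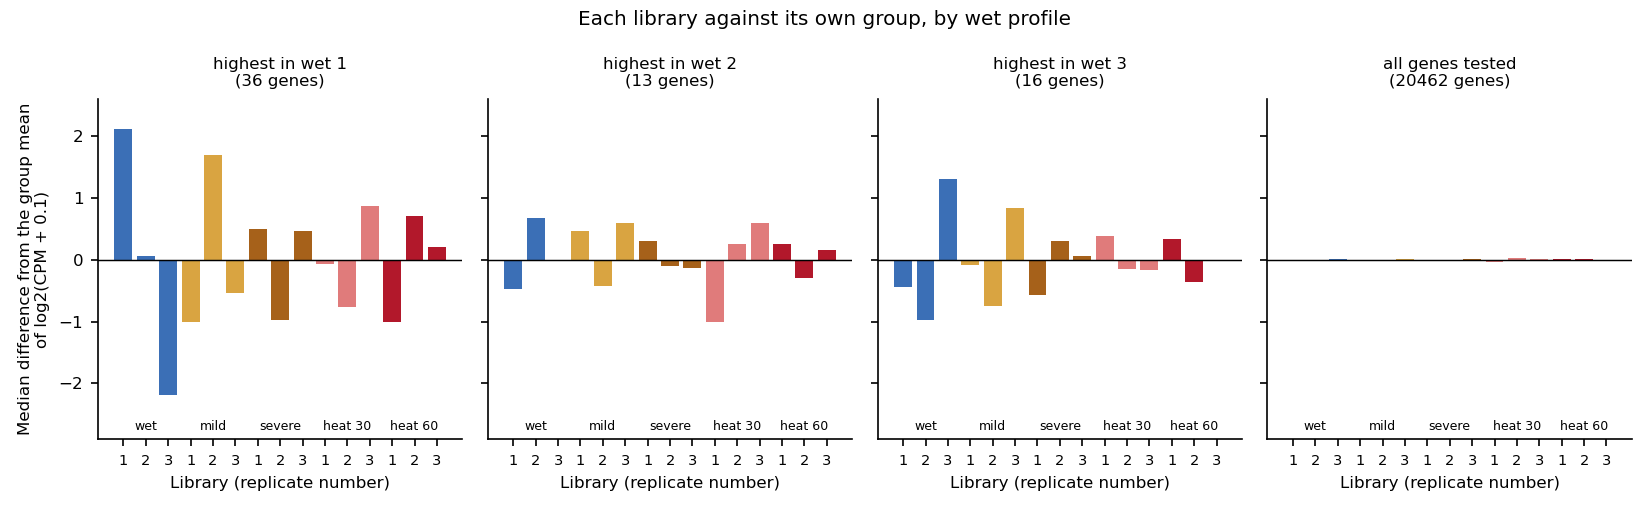
Median difference of each library from its own group mean, in log2(CPM + 0.1), for the members of each block and for all genes tested; bars are single libraries, coloured by group and numbered by replicate. The 36 genes highest in wet library 1 reach 2.12 in that library, where the sorting into blocks made them high. They reach 1.69 in mild drought library 2 and 0.71 in library 2 at 60 min of heat. All genes stay near 0, but they were not sorted and are not a like set.

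Diterpenoid phytoalexin genes outside the 65, from a list of 8 synthases and oxidases of momilactones, phytocassanes and related compounds, showed the same order. All 8 were highest in wet library 1, in mild drought library 2, in library 3 at 30 min of heat and in library 2 at 60 min. The same holds for 3.65% of all genes. By locus number CPS4, CYP99A3, MAS and KSL4 lie close together. KSL7, CYP71Z7 and CPS2 lie close to the member CYP76M6, so the 8 are not separate evidence. CYP71Z7, a cytochrome P450 of the phytocassane branch, stood at 73.7, 18.3 and 2.8 CPM in the wet control and at 5.96, 28.5 and 11.1 CPM at 60 min of heat. None of the 8 passed the threshold in mild or severe drought, where 0.528% and 1.05% of all genes were lower. Their medians of log2 fold change were -2.89 in mild and -5.66 in severe drought. At 30 min of heat 1 of the 8 was lower, where 19.6% of all genes were lower. Their median at 60 min of heat was -1.36. By contrast, of 11 jasmonate genes outside the 65, 5 were highest in wet library 1 and 1 of them also in mild drought library 2. Their median log2 fold changes were 0.07 in mild and -0.12 in severe drought with none past the threshold. At 30 min of heat 1 of the 11 was higher and 2 lower, beside 19.3% and 19.6% of all genes.

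The wet libraries also differed outside the members, and library 1 was not alone in this. Wet libraries 2 and 3 differed by 512.5 in chi-square per gene of their counts, libraries 1 and 3 by 311.4 and libraries 1 and 2 by 166.3. The leaf marker genes CAB1R and CAB2R encode chlorophyll-binding proteins. They summed to 20868 CPM in wet library 1 against 31931 and 28095 CPM in the other wet libraries, and to 18938 to 21905 CPM at 60 min of heat. Wet library 1 had the highest TMM factor of the 15, at 1.318 against 1.229 for wet library 3. Its total of 61032937 counts lay within the range of the group. Root markers summed to 11.9 to 33.7 CPM per library over 5 genes, mostly from the silicon transporter LSI1, with LSI2 at 0 in every library. Seed markers summed to 1.79 to 3.33 CPM over 5 genes, and the meristem gene OSH1 had no count. The part of these differences in the members' values was not tested.

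A smaller set lost nearly all of its RNA in drought and kept it in every wet library. Emp1 stood at 2.9, 18.4 and 7.66 CPM in the wet control and had no count in any of the 6 drought libraries. With 3 counts over a group as the floor, the wet control was at least 622-fold higher than mild drought and at least 590-fold higher than severe drought, a bound for counting error only. At 30 min of heat Emp1 ran from 0.56 to 6.13 and 21.3 CPM, and at 60 min it stood at 13.5, 1.54 and 12.6 CPM. Both heat groups were above the drought libraries, and both varied widely among their libraries.

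LOC_Os06g19095 stood at 29.4, 74.9 and 76.3 CPM in the wet control, at 0.101, 0.0532 and 0.438 CPM in mild drought and at 0.0367, 0 and 0 CPM in severe drought. Its 2 counts in severe drought against 13446 in the wet control gave a ratio of 5430. The exact 95% interval, for counting error only and not the spread between libraries, ran from 1500 to 44800. The neighbour LOC_Os06g19110 stood at 15.6, 64.4 and 38.4 CPM in the wet control and had no count in severe drought. For that gene the wet control was at least 2410-fold higher, again a bound for counting error only. Both genes were present in the heated plants, with LOC_Os06g19095 at 2.78, 28.7 and 51.3 CPM at 30 min and 53.5, 26.8 and 57.6 CPM at 60 min.

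Of the 10 members with the highest wet means, 5 had lower levels at each step of soil water with no overlap of the wet, mild and severe libraries. The choice favours the step from wet to drought, and the share of all genes with this order was not computed. From mild to severe drought no gene passed an adjusted p of 0.05 by edgeR, so the order is a description. LOC_Os12g13340 stood at 1757, 2777 and 2514 CPM in the wet control, at 364, 51 and 254 CPM in mild drought and at 35.2, 26.5 and 24.4 CPM in severe drought. The 3 groups did not overlap. LOC_Os01g45914 stood at 1697, 2442 and 3305 CPM in the wet control, at 1076, 241 and 855 CPM in mild drought and at 152, 39.4 and 67.9 CPM in severe drought, again without overlap. It stood at 996, 2638 and 3154 CPM at 30 min of heat and at 2674, 1770 and 2337 CPM at 60 min, so that 5 of the 6 heat libraries were inside the wet range. LOC_Os11g15624 (226, 333 and 333 CPM in the wet control) and LOC_Os10g11889 (232, 293 and 415 CPM) had the same steps, reaching 1.34 to 12.6 and 4.33 to 17.5 CPM in severe drought.

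LOC_Os01g49470, the remaining one of these 5, stood at 301, 637 and 313 CPM in the wet control, at 172, 99.7 and 111 CPM in mild drought and at 95.6, 52.6 and 47.6 CPM in severe drought. LOC_Os05g47780, also among the 10, stood at 103, 257 and 143 CPM in the wet control, at 45.1, 21.2 and 24.5 CPM in mild drought and at 21.7, 15.1 and 14.2 CPM in severe drought. Every wet library of both genes was above every drought library, but the mild and severe libraries of LOC_Os05g47780 overlapped. At 60 min of heat LOC_Os01g49470 stood at 220 to 323 CPM and LOC_Os05g47780 at 87.9 to 162 CPM.

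Cytokinin oxidase CKX2 stood at 10.4, 12.3 and 5.71 CPM in the wet control, at 1.17, 2.07 and 1.14 CPM in mild drought and at 1.08, 0.346 and 0.909 CPM in severe drought. It remained at 7.42, 6.66 and 8.49 CPM at 30 min of heat and 5.44, 9.36 and 6.52 CPM at 60 min. Every wet and heat library was above every drought library. TPP2 behaved alike at 9.09, 19.3 and 11.5 CPM in the wet control against 2.45 to 3.54 CPM in the 6 drought libraries, and at 5.86 to 12.9 CPM in the 6 heat libraries.

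With the wet and drought libraries that chose the members, edgeR's quasi-likelihood test with Benjamini-Hochberg adjustment over all genes placed 15 of the 65 lower in mild drought (0.528% of all genes) and 23 lower in severe drought (1.05%). Of the 23 in severe drought, 13 belonged to the 13 genes highest in wet library 2 and 5 to the 36 highest in wet library 1. At 60 min of heat 3 members were higher than the wet control (16.2% of all genes) and none was lower by edgeR (15.8%), in a comparison whose means the choice had limited. Over both directions 3 members had an unadjusted p under 0.05 there, and DESeq2 called 3. These counts describe the choice and support nothing. The count in mild drought was 23 without wet library 2, 7 without wet library 3, 3 without mild library 1 and 9 without mild library 2. At 60 min of heat the count of higher members was 5 without wet library 1. Every library at 60 min of heat stood above every drought library for 49 members (21.9% of all genes), a share that the choice also raises.

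Severe drought against mild drought compared groups that were both chosen as low. The median log2 fold change of the members was -1.04, against -0.02 for all genes, with 11 genes above 0 and 53 below it. No member and no gene passed the threshold in edgeR, higher (0.0% of all genes) or lower (0.0%). The smallest adjusted p among the members was 0.805, while 15 members and 569 genes had an unadjusted p under 0.05, and DESeq2 placed 6 members lower and called 43 genes in all. Without mild drought library 2, edgeR placed 2 members lower. LOC_Os12g13340 had a log2 fold change of -2.96 ± 0.57 (SE, 3 against 3 libraries; edgeR adjusted p = 0.81). All 36 genes highest in wet library 1 were lower in severe than in mild drought, with a median of -1.2. These genes all peaked in mild drought library 2, and without that library the median of all 65 members was -0.19. The 16 genes highest in wet library 3 had a median of 0.1, with 11 of them above 0.

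The comparison of 30 min of heat with the wet control asked whether the members held their level already at that time, and only its wet libraries had entered the choice. The choice asked for wet means well above drought, which favours a lower level at 30 min than in the wet control. The members' median and counts below are therefore not like for like with those of all genes. The median log2 fold change was -0.79, against -0.14 for all genes, with 14 members above 0 and 51 below. The members' median was -0.21 without wet library 1 and -1.5 without library 3 at 30 min. Past the threshold, 4 members were higher (19.3% of all genes) and 6 were lower (19.6%). The count of higher members was 8 without wet library 3, and that of lower members was 2 without library 2 at 30 min. For 9 members the libraries at 30 min did not overlap the wet ones in either direction (48.1% of all genes). Every library at 30 min stood above every drought library for 31 members (22.1% of all genes), a share that the choice of low drought means raises. The medians of the blocks were -1.02 for the genes highest in wet library 1, -0.33 for library 2 and -0.22 for library 3. Scaling to total counts alone moved the median of all genes by -0.88, to -1.02, and the members' median to -1.76, with 2 members higher and 29 lower.

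PM19L1 rose most. It stood at 3.24, 26.8 and 18 CPM in the wet control, had 26 counts over mild drought and 2 over severe drought, and reached 94.6, 342 and 449 CPM at 30 min of heat and 223, 145 and 176 CPM at 60 min. No heat library overlapped a wet one. The log2 fold change was 4.21 ± 0.87 at 30 min (SE; edgeR adjusted p = 0.002). Its 2 counts in severe drought gave a ratio of wet control to severe drought of 1420, with an exact 95% interval from 394 to 11800. That interval covers counting error only, not the spread between libraries.

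C3H2 rose at 30 min and fell from 30 to 60 min. It stood at 26.4, 37.1 and 98.6 CPM in the wet control, at 5.28, 2.31 and 21.5 CPM in mild drought and at 5.73, 21.4 and 20.4 CPM in severe drought. It stood at 549, 448 and 440 CPM at 30 min of heat and was back at 51.1, 42.1 and 42 CPM at 60 min, inside the wet range. The log2 fold change was 3.15 ± 0.76 at 30 min against the wet control (SE; edgeR adjusted p = 0.0055) and -3.41 ± 0.77 from 30 to 60 min (adjusted p = 0.007).

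LOC_Os01g04800 and LOC_Os01g32770 were higher at both times. LOC_Os01g04800 stood at 49.8, 17.9 and 9.77 CPM in the wet control, at 101, 117 and 129 CPM at 30 min and at 76.8, 109 and 110 CPM at 60 min (log2 fold change at 30 min 2.16 ± 0.57 SE, edgeR adjusted p = 0.0088). LOC_Os01g32770 stood at 10.6, 10.4 and 21.3 CPM in the wet control and at 20.7, 26.8 and 36.5 CPM at 30 min (0.99 ± 0.25, adjusted p = 0.0076). Its 41.6, 41.2 and 42.4 CPM at 60 min and its 2.44 to 2.83 CPM in the 6 drought libraries varied little between libraries. Without library 3 at 30 min the adjusted p of LOC_Os01g32770 was 0.055. Scaled to total counts alone, the fold change of LOC_Os01g32770 at 30 min was 0.09 and that of LOC_Os01g04800 was 1.22, with adjusted p of 0.75 and 0.074.

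Among the 6 members that were lower at 30 min, LOC_Os08g02110, LOC_Os05g33080 and LOC_Os07g04930 stood below every wet library. LOC_Os08g02110 stood at 15.2, 8.04 and 3.88 CPM in the wet control, at 1.26, 0.578 and 0.884 CPM at 30 min and at 4.16, 7.19 and 8.58 CPM at 60 min (log2 fold change at 30 min -3.32 ± 0.81 SE, edgeR adjusted p = 0.0061). LOC_Os05g33080 stood at 4.43, 6.08 and 5.21 CPM in the wet control, at 2.04, 1.9 and 2.35 CPM at 30 min and at 7.2, 4.99 and 5.13 CPM at 60 min (-1.32 ± 0.35, adjusted p = 0.0093). LOC_Os07g04930 stood at 63, 87.5 and 215 CPM, then at 14, 30.4 and 45.9 CPM and at 91.5, 71.3 and 94.1 CPM. These genes were low at 30 min and within or near the wet range at 60 min. The choice had required a 60 min mean of at least 0.67 times the wet mean.

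The calls of LOC_Os07g04930 and of the remaining 3 genes, which overlapped the wet control, depended on single libraries. LOC_Os01g63180 had a log2 fold change of -3.16 ± 1.09 (SE; edgeR adjusted p = 0.036), which became -1.41 with an adjusted p of 0.28 without wet library 1. LOC_Os02g50810 had -1.69 ± 0.54 (adjusted p = 0.026), which became -0.61 with an adjusted p of 0.23 without wet library 3. LOC_Os07g41200 had -1.75 ± 0.64 (adjusted p = 0.045), which became -0.89 with an adjusted p of 0.26 without wet library 3. LOC_Os07g04930, at -2.02 ± 0.71 (adjusted p = 0.039), became -1.34 with an adjusted p of 0.17 without wet library 3. The adjusted p also passed 0.05 without any 1 library at 30 min for LOC_Os01g63180 (0.086 to 0.1), without library 2 or 3 for LOC_Os02g50810 (0.089 and 0.081) and LOC_Os07g41200 (0.14 and 0.1), and without library 1 or 2 for LOC_Os07g04930 (0.12 and 0.097). For LOC_Os07g41200 it was 0.053 without wet library 1.

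**Figure D4:**
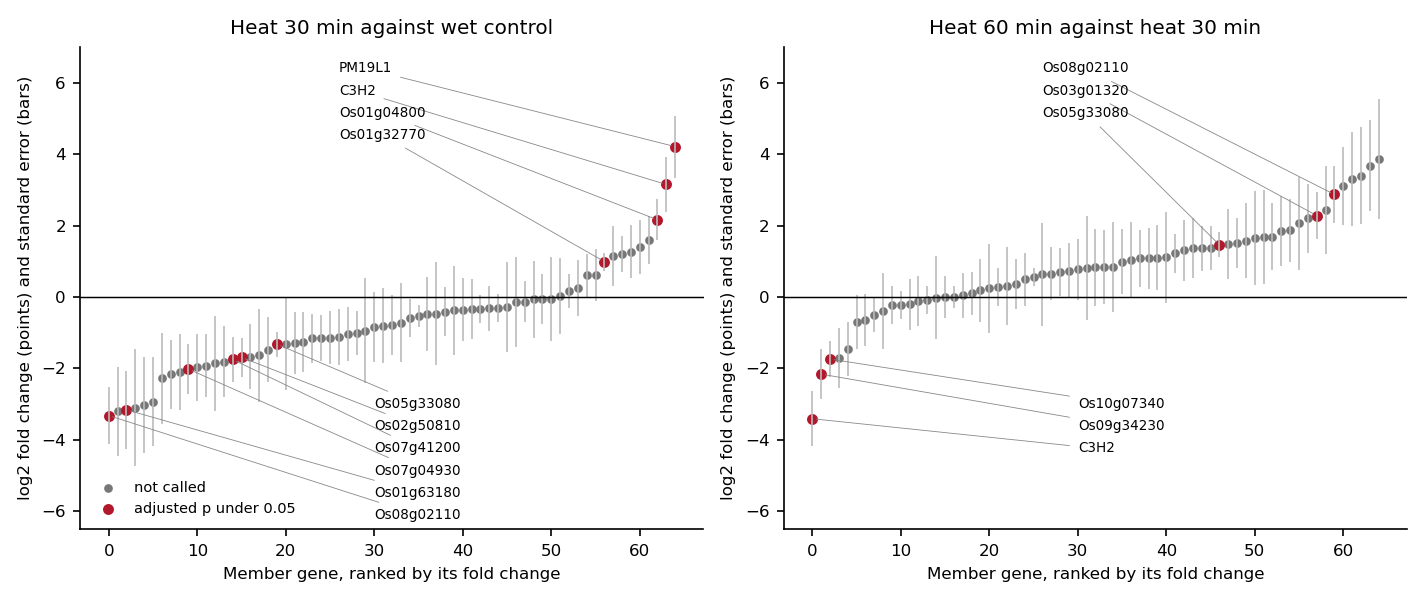
Log2 fold change (points) and standard error (bars) of the 65 members, each panel ranked on its own, for 30 min of heat against the wet control and for 60 min against 30 min; red points passed an adjusted p of 0.05. At 30 min 4 members were higher, led by PM19L1 at 4.21, and 6 were lower, led by LOC_Os08g02110 at -3.32.

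Between 30 and 60 min of heat the members' median log2 fold change was 0.83, against -0.02 for all genes, with 49 above 0 and 16 below. The libraries at 60 min had entered the choice, which asked for a high mean. Past the threshold 3 members were higher at 60 min (10.4% of all genes) and 3 were lower (13.9%). Leaving out library 2 of either time left 1 higher and 1 lower, and leaving out library 3 at 30 min or library 1 or 3 at 60 min left 1 lower. LOC_Os08g02110 rose by 2.87 ± 0.80 on the log2 scale (SE; edgeR adjusted p = 0.021) and LOC_Os05g33080 by 1.46 ± 0.35 (adjusted p = 0.0096). LOC_Os03g01320 rose from 13.1, 6.25 and 22.3 CPM to 25.5, 120 and 56.7 CPM (2.28 ± 0.66, adjusted p = 0.026), and with the replicate number as a block its adjusted p was 0.056. Without library 1 or 2 at 30 min or library 2 at 60 min it was 0.075, 0.094 and 0.12. For LOC_Os08g02110 the adjusted p was 0.052 to 0.082 without library 2 or 3 of either time.

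Besides C3H2, LOC_Os09g34230 fell from 386, 245 and 243 CPM at 30 min to 74.7, 27 and 94 CPM at 60 min (log2 fold change -2.16 ± 0.69 SE, edgeR adjusted p = 0.037). LOC_Os10g07340 fell from 31.6, 53.1 and 53.5 CPM to 17.3, 11.6 and 12.5 CPM (-1.74 ± 0.51, adjusted p = 0.026). The 60 min mean was 0.676 times the wet mean for LOC_Os09g34230 and 0.691 times for LOC_Os10g07340, close to the limit of 0.67 set by the choice. The 27 CPM of LOC_Os09g34230 and the 11.6 and 12.5 CPM of LOC_Os10g07340 lay below every wet library. For both genes every library at 30 min was above every wet library. Against the wet control, however, the 30 min level of LOC_Os10g07340 (edgeR adjusted p = 0.075) and LOC_Os09g34230 (0.08) did not pass the threshold. Scaled to total counts alone, LOC_Os09g34230 and LOC_Os10g07340 both had an adjusted p of 0.11. Leaving out any 1 library of either time raised that of LOC_Os09g34230 to between 0.06 and 0.13. For LOC_Os10g07340 it was 0.051 to 0.098 without any 1 of them other than library 1 at 30 min.

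Membership itself depended on single libraries. Without wet library 1, 27 genes met the rule and 20 of them were among the 65. Without mild drought library 2, 115 genes met it, 59 of them among the 65. Without wet library 3, 63 genes met it, of which 33 were among the 65. With both wet library 1 and mild drought library 2 left out, a choice made after seeing the data, 50 genes met the rule and 29 were among the 65.

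Only 8 members met the rule whichever of the 12 wet, drought and 60 min heat libraries was left out. They were Emp1, PM19L1, LOC_Os01g04800, LOC_Os01g32770, LOC_Os01g65110, LOC_Os09g04310, LOC_Os11g15624 and LOC_Os12g13340, named for this reason after their values were seen. LOC_Os01g65110 stood at 42.2, 94.7 and 52.3 CPM in the wet control, at 7.81, 0.678 and 6.52 CPM in mild drought and at 0.753, 0.288 and 0.135 CPM in severe drought. It stood at 39, 91.7 and 158 CPM at 30 min of heat and 97.1, 52.1 and 100 CPM at 60 min. LOC_Os09g04310, at 15.7, 9.13 and 10.4 CPM in the wet control and 0.245 to 4.39 CPM in drought, and LOC_Os01g04800 were the only ones of the 8 that were highest in wet library 1. PBZ1, CM-LOX1, CM-LOX2, AOS2, HAK1, HAK5, CYP76M6, 4CL5 and AT5 all left the set without wet library 1.

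**Figure D5:**
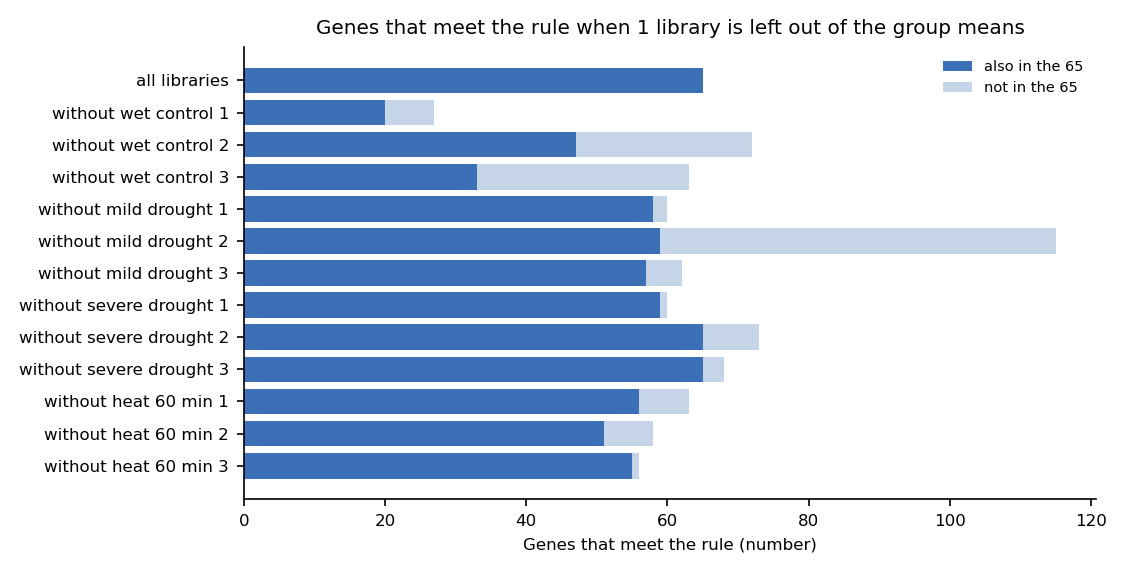
Number of genes that met the rule with all libraries and with each wet control, drought or 60 min heat library left out of its group mean; dark bars are genes among the 65 and light bars are other genes. The number fell to 27 without wet control library 1 and rose to 115 without mild drought library 2.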

How the data were processed

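Whole-shoot mRNA was sequenced from stranded NEBNext libraries (per the labels' protocols). Sample titles place the 15 libraries in 5 groups of 3. The authors deposited whole-number read counts per gene, not normalized. Reads were processed with Trimmomatic, HISAT2 and featureCounts, per the submitters' processing notes. No source used here gives the genome build or strand setting, so reads of overlapping or antisense genes may be mixed. The table gives no coordinates.

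Tests used edgeR 4.0.16 in R 4.3.3: filterByExpr (minimum count 10, minimum total 15; 20462 of 24073 genes kept, 1205 without any count), TMM factors (0.6217 to 0.7057 at 30 min of heat, 0.999 to 1.318 elsewhere), a robust quasi-likelihood fit with 1 mean per group over all 15 libraries, and Benjamini-Hochberg adjustment, with 0.05 as the threshold. The SE is the log2 fold change divided by the square root of F. Alternatives were RLE factors, total counts alone, no filter, DESeq2 1.42.0, only the compared groups, a replicate block and each library left out. On simulated counts (heat 30 min against wet control, 20462 genes), 177 of 200 changed genes were recovered and 8 unchanged ones called. Libraries of a group differed by 32.4 to 512.5 in chi-square per gene, so none was a second copy of another.

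The members and gene lists were chosen with earlier results of these data known. Loci that the rule excludes are not reported here. Symbols come from RefSeq assembly ASM3414082v1. The link from a locus to a symbol was taken from general knowledge of rice genes and kept where the symbol lies on the same chromosome within 1000 kb of the expected place, which cannot separate tandem neighbours. The text names members with such a symbol, the 10 with the highest wet mean, the largest changes past the threshold at 30 min of heat (up to 6 each way), and the 3 genes on each side of each limit. Other loci were named after their values were seen. Of the members' names, 10 were added once the members were known. Same-numbered libraries at 30 and 60 min of heat deviated together (correlations 0.21 to 0.45 over genes, other pairs -0.42 to 0.27), and in no other comparison did all 3 pairs pass 0.1. A pairing there is read from the values only.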

Additional observations from a re-analysis of the deposited data

Results flagged for a closer look

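In 6 members the effects of 30 and 60 min of heat differed by edgeR's quasi-likelihood test of the difference itself (heat 60 min against heat 30 min, Benjamini-Hochberg adjusted over all genes, 3 libraries per group). Higher at 60 min were 4.62% of the members and 10.4% of all genes, and lower were 4.62% and 13.9%. The libraries at 60 min had entered the choice of members. C3H2 was lower at 60 min by a log2 fold change of -3.41, LOC_Os09g34230 by -2.16 and LOC_Os10g07340 by -1.74. LOC_Os08g02110 was higher at 60 min by 2.87, LOC_Os03g01320 by 2.28 and LOC_Os05g33080 by 1.46. C3H2 and LOC_Os05g33080 passed the threshold in each of 12 alternatives, LOC_Os08g02110 and LOC_Os03g01320 in 8, LOC_Os10g07340 in 6 and LOC_Os09g34230 in 5.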

How the results depend on the processing

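The number of members was 65, with 166 under a drought limit of 1/2 and 37 under 1/5 of the wet mean, and 27 to 115 with single libraries left out. Other scalings or added CPM kept the number within 1.5 times, but not always the same genes. With total counts alone 79 genes met the rule, 49 of them among the 65. With 1 CPM added 57 met it, 55 of them among the 65, and with RLE factors 62 met it, all among the 65. At 30 min of heat against the wet control (4 members higher, 6 lower, median log2 fold change -0.79), total counts alone gave 2, 29 and -1.76, the compared groups alone gave 3 lower, and DESeq2 gave 11 lower. Single libraries left out gave 3 to 8 higher, 2 to 8 lower and medians from -1.5 to -0.21. For 60 against 30 min (3 higher, 3 lower, median 0.83), total counts alone gave 17, 1 and 1.61, the compared groups alone 15 and 6, and DESeq2 8 higher, with 1 to 4 higher, 1 to 2 lower and medians of 0.55 to 1.55 when libraries were left out. For severe against mild drought, DESeq2 gave 6 lower, and leaving libraries out gave 0 to 2 lower and medians of -1.42 to -0.19. For the comparisons that chose the members, mild drought had 15 lower, against 0 with the compared groups alone, 42 with DESeq2 and 3 to 23 without single libraries (medians -3.41 to -1.88). Severe drought had 23 lower, against 6, 57 and 19 to 29 (medians -4.32 to -2.73). Heat at 60 min had 3 higher, with 2 to 5 and medians from -0.23 to 0.85. The causes were not tested, including whether the compared groups alone changed the counts by leaving fewer libraries to estimate the spread.

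The replicate block gave 5 higher and 4 lower at 30 min of heat, 2 higher and 3 lower for 60 against 30 min, 12 lower in mild and 20 lower in severe drought. It ended the calls of LOC_Os01g63180 (adjusted p = 0.078 by edgeR) and LOC_Os07g41200 (0.058) at 30 min, where the libraries share only a number. PM19L1, C3H2, LOC_Os08g02110 and LOC_Os05g33080 at 30 min passed the threshold in each of 12 alternatives. Drought levels near 0 rest on a few counts, so their ratios to the wet control have wide intervals.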
